A study of Mus musculus with 2 samples.

Results

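Collagens are the main structural proteins of the extracellular matrix. Each is a triple helix of alpha chains that are hydroxylated on proline and lysine in the endoplasmic reticulum, secreted, trimmed and then cross-linked. Fibrillar collagens build the cables of the stroma, and type IV collagen builds the sheet of the basement membrane on which mammary basal cells sit. Smaller classes decorate fibrils, form microfibrils or anchor cells to the sheet. The genes described here were chosen by name: the collagen chain genes (Col1a1 and the like), the prolyl 4-hydroxylase subunits P4ha1 to P4ha3, the lysyl hydroxylases Plod1 to Plod3, the lysyl oxidases Lox and Loxl1 to Loxl4, the proteinase enhancers Pcolce and Pcolce2, the collagen chaperone Serpinh1 and the prolyl 3-hydroxylase P3h1. This gave 59 of the 49492 genes in the table, namely 44 chains (11 fibrillar, 9 of the basement membrane and its anchoring zone, 24 others) and 15 enzymes and helpers. No gene is listed under the older name Leprel1.

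Basal cells were sorted from the mammary glands of adult WT mice as CD24+ CD29hi cells and grown in a 3D matrix gel with EGF, per the study's methods, after cells of blood and vessel lineages had been gated out. The ctrl cells received no treatment, and the M2 cells shared their wells with macrophages during a culture of 11 to 14 days. The macrophages came from bone marrow, were polarised with IL-4 and IL-13, and were kept apart from the gel by the membrane of a transwell chamber. Each group holds 1 library, with 26912610 reads in genes for ctrl and 29413844 for M2, and no measure of the spread between cultures exists. Basal markers were abundant in both libraries (Krt14 had 81991 reads in ctrl and 68968 in M2, Acta2 24752 and 26655), luminal keratin was present as well (Krt8, 29888 and 36348 reads), and of 12 macrophage genes 7 had too few reads to test, with Adgre1, Ptprc, Tyrobp and Fcer1g at 0 in both libraries and Arg1 the most abundant (1507 and 2090 reads). By flow cytometry, the paper reports that luminal cells were the large majority in such cultures, with and without M2 macrophages. With M2, the luminal share was smaller and the basal share larger, and fewer of the luminal cells were Sca1hi. Differences below are therefore between mixed cultures, not within basal cells alone. The tests below compare the ctrl and M2 libraries, not the conditions, and intervals cover counting error only.

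In the M2 library, 6 of 11 fibrillar chains were lower, type IV chains stayed within 2-fold apart from a scarce one, and all 3 prolyl 4-hydroxylase genes were higher. Of 54 members with at least 10 reads in all, 11 (20.4%) were called higher in M2, against 8.16% of all 19233 genes tested, and 16 (29.6%) were called lower, against 6.55%. A gene was called where an exact binomial test on its reads reached an adjusted p under 0.05 over all genes tested and the difference was at least 2-fold. Many members are deeply covered, which makes calls easier. Where only the 14590 genes at or above 1 CPM (counts scaled to the library) in both libraries were tested, 9 of 48 members were higher, beside 797 of all these genes, and 13 were lower, beside 583. The 5 members below the read minimum were Col26a1 (0 reads in ctrl and 4 in M2), Col19a1 (1 and 2), Col6a5 (1 and 1), Col22a1 (6 and 2) and Col13a1 (4 and 1), none of which could be compared.

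**Figure D1:**
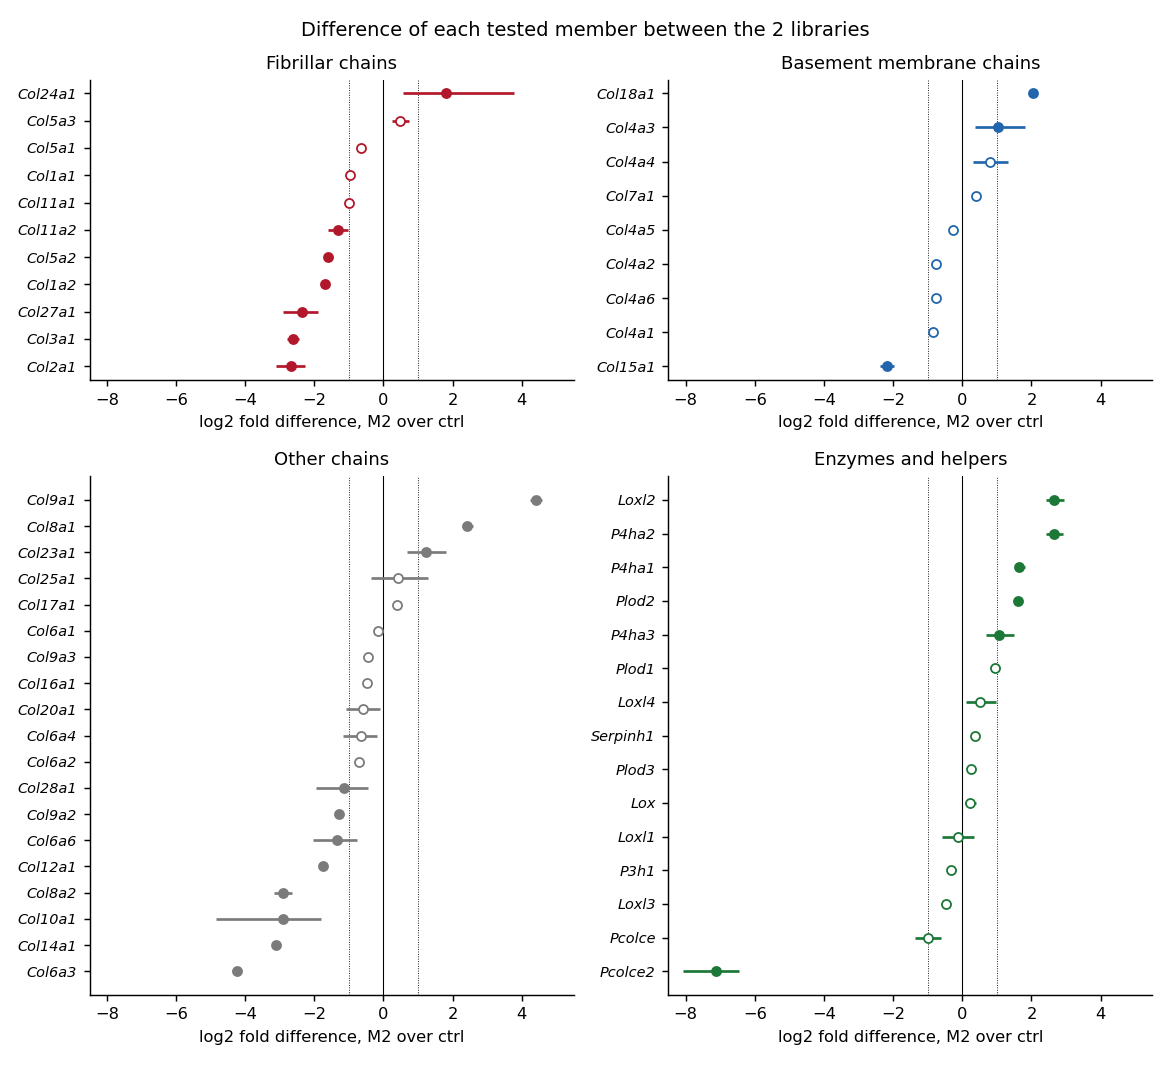
Log2 fold difference of reads, M2 over ctrl, for the 54 tested members in 4 panels by group. Points are values, horizontal lines 95% intervals of counting error, filled points called genes, and dotted lines mark a 2-fold difference. Most fibrillar chains lie left of 0 and most enzymes right of it, while Pcolce2 stands apart at -7.12.

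As a whole, collagen chains took 0.748% of the ctrl reads and 0.518% of the M2 reads, with 95% Wilson intervals of 0.745 to 0.751 and of 0.516 to 0.521. Fibrillar chains made up 20.4% of the chain reads in ctrl and 11.9% in M2, chains of the basement membrane zone 35.1% and 47.7%, and the other chains 44.5% and 40.3%. The set of leading chains also changed. Counted per gene length, in TPM (reads over gene length, scaled so that every library has the same sum), the 5 chains of the highest level in ctrl were Col9a2 (302), Col17a1 (275), Col9a3 (227), Col4a1 (211) and Col4a5 (188). In M2 they were Col17a1 (346), Col18a1 (223), Col7a1 (174), Col9a3 (161) and Col4a5 (152). Of Col17a1, Col18a1 and Col7a1, chains of the zone where epithelium meets its basement membrane, Col17a1 alone was also among the leading 5 of ctrl. The type IV chains Col4a1 and Col4a5, which belong to the same zone, were both among the leading 5 of ctrl, and Col4a5 alone in M2. Col17a1 is counted with the other chains in the shares and sums. The leading 5 chains held 44.8% of the chain TPM in ctrl and 53.4% in M2.

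**Figure D2:**
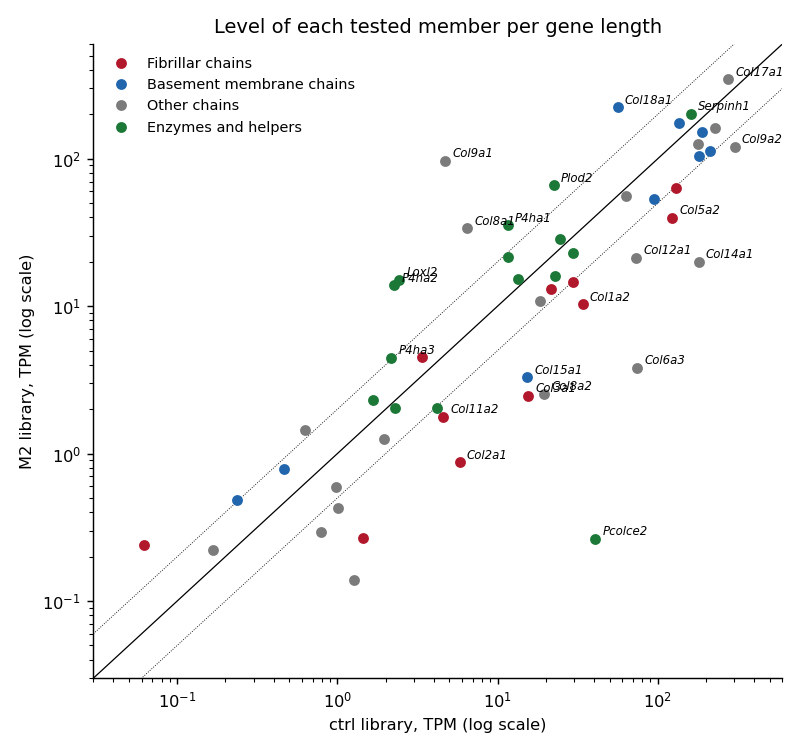
Level of each tested member in the ctrl library (horizontal) and the M2 library (vertical) in TPM on log axes, coloured by group. The solid line marks equal levels and dotted lines a 2-fold difference, and names are given for called members above 4 TPM and for Col17a1 and Serpinh1. Col9a1 (4.69 and 96.5 TPM) and Pcolce2 (40.6 and 0.265 TPM) lie farthest from the line.

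Of the 11 fibrillar chains, 6 fell, 1 rose and 4 were not called. The median log2 fold difference was -1.31, against -0.0032 over all genes tested, and the summed reads fell by 1.24 on the log2 scale (95% interval -1.27 to -1.22). Col3a1, the homotrimeric collagen of elastic stroma (chromosome 1, 45311538 to 45349706), fell 6.11-fold, from 1612 to 276 reads (log2 -2.61, 95% interval -2.80 to -2.43). Col1a2, a chain of the main fibril collagen type I (chromosome 6, 4504814 to 4541544), fell from 4463 to 1457 reads (log2 -1.68). Its partner Col1a1 had 2057 and 1097 reads, and its log2 difference of -0.98 was just under the 2-fold limit. The chains of one protein thus did not fall equally: per gene length, Col1a1 stood at 0.87 of Col1a2 in ctrl and at 1.43 in M2. This shift of the ratio, 0.71 on the log2 scale with a 95% interval of 0.57 to 0.85, does not depend on how the libraries are scaled.

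Types V and XI start fibrils and limit their width, and 1 chain of each, Col11a1 and Col5a2, were the most abundant fibrillar chains of these cultures. Col11a1 went from 17392 to 9163 reads (129 to 62.9 TPM), and its log2 difference of -0.99 was not called. Col5a2 had 12469 and 4341 reads (123 and 39.6 TPM) and was 3.01-fold lower (log2 -1.59, -1.64 to -1.54). Their partner chains were scarcer. Col11a2 went from 331 to 139 reads (log2 -1.31, called), and Col5a1 from 1929 to 1277 (log2 -0.66, not called). Col5a3, the alternative type V chain, had 241 and 353 reads and a log2 difference of 0.48 that was not called. Col2a1, the main collagen of cartilage, had 367 and 60 reads (log2 -2.66, 95% interval -3.10 to -2.28), and the minor fibrillar chain Col27a1 had 199 and 40 (log2 -2.36). The chain called higher, Col24a1, rested on 5 and 21 reads. Libraries were also scaled by total reads alone, without the trimmed mean of M values (TMM) that the values above use. Col1a1 and Col11a1 then also passed the 2-fold limit, so that 8 of 11 fibrillar chains were lower. This scaling lowers the log2 difference of every gene by the same amount, and the share of all genes called there was not counted.

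Fibroblasts are the usual source of fibrillar collagen in the gland, and their other marker genes were read beside these values. Of 9 tested, 1 was called higher and 1 lower. Pdgfra had 607 reads (ctrl) and 822 (M2), Thy1 257 and 253, Dpt 1 and 4, Pi16 0 and 0, and Lum 10 and 3. Dcn was called higher (51 and 157 reads) and Pdgfrb lower (259 and 55). Outside that list, Itga11 (191 and 77 reads), Mrc2 (247 and 66), Fmod (867 and 104) and Tnxb (86 and 4), which stromal cells also express, were called lower. The lists they come from went both ways. Of 13 fibril-associated genes tested, 2 were called higher, among them Fbln1 (62 and 485 reads), and 3 lower. Of 8 collagen receptors tested, 1 was called higher and 2 lower. Over the 13 genes of the fibroblast list, the summed level was 0.61 higher in M2 on the log2 scale. It was led by Vim and Fbn1, which other cells express too, and the median of the genes tested was -0.09. In bulk RNA, fewer cells of a type and less RNA per cell cannot be told apart. The part that cell composition plays in the collagen values was not tested. Among 10 luminal markers, 6 were called lower (Pgr, Esr1, Kit, Prlr, Foxa1 and Elf5). The others were not called, with log2 differences of 0.21 for Krt8, 0.06 for Epcam, -0.05 for Krt18 and -0.78 for Krt19. Among 10 basal markers, 1 was called lower (Oxtr) and 1 higher (Krt17). Markers of further cell types were read too. Of endothelial genes, Pecam1 was called higher (33 and 76 reads) and Kdr (11 and 0) and Cdh5 (11 and 2) lower. The pericyte gene Abcc9 (29 and 7 reads) and the adipocyte genes Lep (198 and 6) and Fabp4 (62 and 10) were called lower. Of the macrophage list, Cd163 was called higher (2 and 30 reads), while Arg1 had 1507 and 2090, Cd68 170 and 165, Csf1r 94 and 92 and Lyz2 3 and 1, none of them called.

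None of the 4 abundant type IV chains, the network collagen of the basement membrane, was called. Type IV collagen is made of chains encoded in head-to-head gene pairs, and the common pair Col4a1 and Col4a2 starts transcription 21 bases apart on chromosome 8, on opposite strands, by RefSeq start sites on GRCm38. Col4a1 went from 16628 to 9647 reads (log2 -0.85, 95% interval -0.89 to -0.82), and Col4a2 had 12729 and 7851 (log2 -0.77, -0.81 to -0.73). Their ratio per gene length, 1.16 in ctrl and 1.09 in M2, changed the least of all ratios between members computed here (log2 -0.09, 95% interval -0.14 to -0.03).

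The pair Col4a5 and Col4a6 of the X chromosome, which forms a second network in skin and breast, has start sites 1343 bases apart. Col4a5 had 13325 and 11655 reads (log2 -0.26) and Col4a6 had 7922 and 4884 (log2 -0.77), so their ratio moved from 1.996 to 2.83. Summed over the 6 type IV genes, reads fell by 0.64 on the log2 scale (95% interval -0.66 to -0.62). The kidney pair was near the floor: Col4a3 had 25 and 55 reads and was called higher (log2 1.04, 0.36 to 1.81), and Col4a4 had 52 and 95 reads and was not called. The call of Col4a3 was lost by scaling on total reads, with a pseudocount of 5, under the 1 CPM filter, at a 4-fold limit and with either assumed variation between cultures. In addition, 5.65% of its exonic bases overlap a gene on the opposite strand with 142 and 165 reads, and the use of strand in counting is not stated.

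The multiplexins, whose tails give rise to endostatin and related fragments, went in opposite directions. Col18a1 (chromosome 10, 77052178 to 77166548), the multiplexin of epithelial and vascular basement membranes, rose from 4163 to 17916 reads, or from 56.1 to 223 TPM, a 4.10-fold difference (log2 2.04, 95% interval 1.99 to 2.09). Col15a1, its close relative at the outer face of the membrane, fell from 1026 to 239 reads (log2 -2.17, -2.38 to -1.97). Per gene length, Col18a1 was 3.67 times as abundant as Col15a1 in ctrl and 67.8 times in M2. Col7a1, the anchoring fibril that fixes the sheet to the stroma, had 14770 and 20463 reads (log2 0.40), and Col17a1, the transmembrane collagen of hemidesmosomes, had 16722 and 22797 (log2 0.38), and neither was called. The summed reads of the 9 genes of the basement membrane zone differed by -0.03 on the log2 scale, and this rested on Col18a1. Without it, a choice made after its values were seen, the sum was -0.35.

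Among 18 non-collagen partners of the basement membrane, 4 were called higher and 0 lower. Among those called were the laminin chains Lama3 (5802 and 12621 reads, log2 1.05) and Lama4 (963 and 2857, log2 1.499), and the linker nidogen Nid1 (559 and 1402, log2 1.26). Hspg2, which encodes perlecan, had a value of 0.55, and Pxdn, the peroxidase that makes sulfilimine bonds in type IV collagen, 0.43. Of the 18 partners, 11 had values above 0 and 7 below. Among the latter were Agrn (13625 and 10419 reads, log2 -0.46), Dst (-0.41) and Plec (-0.34), none of them called. The median of the 18 was 0.43, while that of the collagen chains of the zone was -0.26.

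Several collagens assembled from different chains changed in the proportion of those chains. Type VI microfibrils are assembled from the products of Col6a1, Col6a2 and Col6a3. Col6a3 (chromosome 1, 90765923 to 90843971) fell from 9433 to 523 reads, or from 74.7 to 3.83 TPM, and was 18.9-fold lower (log2 -4.24, 95% interval -4.37 to -4.11). Col6a1 had 2938 and 2779 reads (63.5 and 55.5 TPM, log2 -0.15) and Col6a2 had 1619 and 1032 (log2 -0.72), and neither was called. The ratio of Col6a3 to Col6a1 per gene length was 1.18 in ctrl and 0.07 in M2. The related chains Col6a4 (88 and 58 reads, not called) and Col6a6 (77 and 31 reads, called lower) were at or under 1 TPM.

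Type IX collagen, which coats cartilage fibrils and is built from Col9a1, Col9a2 and Col9a3, changed in the other direction for its scarcest chain. Col9a1 (chromosome 1, 24177610 to 24252684) rose from 251 to 5591 reads, or from 4.69 to 96.5 TPM, a 21.2-fold difference and the largest gain of all members (log2 4.40, 95% interval 4.23 to 4.60). Col9a2 fell from 9856 to 4269 reads (302 to 121 TPM, log2 -1.28) and Col9a3 had 9229 and 7103 reads (227 and 161 TPM, log2 -0.45, not called). Per gene length, Col9a1 stood at 0.016 of Col9a2 in ctrl and at 0.80 in M2, a shift of the ratio by 5.68 on the log2 scale (5.49 to 5.88). RefSeq lists start sites of Col9a1 that lie 17593 bases apart, and reads summed over the gene do not tell its long and short transcripts apart.

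Type VIII collagen, a network former of vessels and cornea, showed chains that moved in opposite directions. Col8a1 (chromosome 16, 57624258 to 57754737) rose from 349 to 1967 reads (6.47 to 33.7 TPM, log2 2.42, 95% interval 2.26 to 2.59). Col8a2 fell from 927 to 130 reads (19.6 to 2.53 TPM, log2 -2.89, -3.18 to -2.64). Col8a1 was 0.33 of Col8a2 per gene length in ctrl and 13.3 times as abundant in M2.

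Of the collagens known to bind the surface of stromal fibrils, Col14a1 and Col12a1 fell. Col14a1 (chromosome 15, 55307750 to 55520803) fell from 13318 to 1603 reads, or from 180 to 20.0 TPM (log2 -3.12, 95% interval -3.20 to -3.05). Col12a1, of the same class, fell from 11796 to 3698 reads (log2 -1.74, -1.80 to -1.69). Col16a1, a further member of the class that is found near basement membranes, had 12777 and 9669 reads (log2 -0.47) and was not called, and the class did not move as a block. Of the 19 other chains tested, 3 were called higher and 8 lower, with a median of -0.66. The remaining calls had few reads: Col10a1, a cartilage network chain (42 and 5 reads), and Col28a1 (52 and 24) were lower, and the transmembrane Col23a1 (38 and 94) was higher. Col20a1 (86 and 60 reads) and Col25a1 (23 and 33) were not called.

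Of the 15 enzymes and helpers, 5 rose and 1 fell, with a median of 0.36. Prolyl 4-hydroxylase makes the hydroxyproline that keeps the triple helix stable at body temperature, and all 3 genes of its catalytic subunit were called higher. P4ha1 (chromosome 10, 59323296 to 59373304) rose from 503 to 1661 reads, or from 11.6 to 35.3 TPM (log2 1.65, 95% interval 1.51 to 1.80). P4ha2 (chromosome 11, 54100095 to 54131665) rose from 149 to 987 reads (2.26 to 13.8 TPM, log2 2.65, 2.41 to 2.92), and P4ha3 from 72 to 160 (log2 1.07, lower end of the interval 0.67). The call of P4ha3 was lost with an assumed variation of 0.2 between cultures and at a 4-fold limit. P4ha1 lost its call at the 4-fold limit, and all 3 calls were lost with an assumed variation of 0.4. The ratio of P4ha2 to P4ha1 per gene length went from 0.20 to 0.39. Their obligate partner P4hb, the disulphide isomerase subunit, had 13153 and 18026 reads (log2 0.39) and was not called.

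P4ha1 and P4ha2 are known as genes that respond to hypoxia-inducible factor. Since the 3 paralogs rose together, the 250 bases before their RefSeq start sites are shown, 5′ to 3′ on the gene's strand (all 3 are on the plus strand of GRCm38.p6). Capitals mark the core letters of the hypoxia response element, ACGTG or GCGTG, searched on both strands, so that CACGT and CACGC are the same letters on the other strand.
P4ha1, chr10:59323046-59323295: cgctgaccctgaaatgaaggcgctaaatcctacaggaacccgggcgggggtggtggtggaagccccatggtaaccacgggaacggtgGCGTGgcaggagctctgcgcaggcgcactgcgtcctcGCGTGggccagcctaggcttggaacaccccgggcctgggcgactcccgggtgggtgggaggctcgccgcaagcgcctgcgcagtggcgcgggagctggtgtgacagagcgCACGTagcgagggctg
P4ha2, chr11:54100674-54100923: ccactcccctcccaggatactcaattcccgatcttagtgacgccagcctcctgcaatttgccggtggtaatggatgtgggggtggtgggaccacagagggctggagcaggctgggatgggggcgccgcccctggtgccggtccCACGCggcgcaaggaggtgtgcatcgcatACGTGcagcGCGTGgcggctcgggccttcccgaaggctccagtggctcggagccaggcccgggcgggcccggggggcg
P4ha3, chr7:100285270-100285519: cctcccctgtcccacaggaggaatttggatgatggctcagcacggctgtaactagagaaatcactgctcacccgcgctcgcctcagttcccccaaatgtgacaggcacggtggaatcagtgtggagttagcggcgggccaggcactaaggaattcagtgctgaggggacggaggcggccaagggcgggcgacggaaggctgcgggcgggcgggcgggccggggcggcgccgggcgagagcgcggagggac

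The P4ha1 window held 3 matches and the P4ha2 window 3, whereas the P4ha3 window held 0. Among members, the windows of Plod3 (not called) and Col6a6 (called lower) held the most, with 4 each. Such short letters are common: 38.6% of all 32851 windows of this length in the RefSeq table had at least 1 match, and 6.58% had 3 or more. Of 45 members with a window used, 19 (42.2%) had a match in at least 1 window. These included 2 of 8 members called higher, 3 of 12 called lower and 13 of 22 not called. This share is counted per gene, while the 38.6% is counted per window. Windows on chromosome 18, where Lox lies, were left out for the members but not for the 38.6%. By group, 8 of 10 enzymes and helpers had one, called or not. A match is a run of letters and no measured site. The RefSeq start of P4ha2 used here lies 829 bases inside the gene as the count table draws it. The members called higher that have no window in the table are Col4a3, Plod2 and Loxl2.

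Lysyl hydroxylases prepare the cross-links of collagen. Plod2, which acts on the telopeptides, rose from 1277 to 4070 reads, or from 22.4 to 66.1 TPM (log2 1.60, 95% interval 1.51 to 1.69). Plod1 had 826 and 1678 reads (log2 0.95, just under the limit) and Plod3 had 1169 and 1470 (log2 0.26). Plod2 stood at 0.92 of Plod3 per gene length in ctrl and at 2.32 in M2. A gene on the opposite strand, with 139 and 496 reads, overlaps 6.42% of the exonic bases of Plod2.

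The lysyl oxidases, which form the cross-links outside the cell, differed among themselves. Loxl2, which cross-links type IV collagen, rose from 139 to 929 reads (2.43 to 15.0 TPM, log2 2.66, 95% interval 2.41 to 2.94). Other genes, of which Gm27177 on the opposite strand had the most reads (111 and 217), overlap 5.70% of its exonic bases. Lox had 678 and 837 reads (log2 0.23), Loxl1 80 and 77 (log2 -0.12), Loxl3 1117 and 844 (log2 -0.47) and Loxl4 74 and 112 (log2 0.52), and none of these was called. Thus 1 of 5 oxidase genes rose. Exons of another gene overlap 11.6% of Loxl3 and 11.9% of Plod3, so their reads are less certain.

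The procollagen C-proteinase enhancers, which speed the trimming of fibrillar procollagen by Bmp1, showed the largest drop of all members. Pcolce2 (chromosome 9, 95637601 to 95698096) fell from 1981 to 14 reads, or from 40.6 to 0.265 TPM (log2 -7.12, 95% interval -8.09 to -6.46). Its paralog Pcolce had 169 and 89 reads (log2 -0.99, not called, and called lower with scaling by total reads alone). Per gene length, Pcolce2 was 9.69 times as abundant as Pcolce in ctrl and stood at 0.13 of it in M2. Bmp1 itself had 3319 and 4924 reads (log2 0.50) and was not called. The general collagen chaperone Serpinh1, or HSP47, had 4162 and 5622 reads (161 and 201 TPM, log2 0.36), and P3h1 had 1194 and 1006 (log2 -0.32).

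Other genes of collagen biosynthesis mostly stayed near 0. Of 24, 23 had enough reads, 1 was called higher and 3 lower, and the median was 0.14. Colgalt2, which puts galactose on hydroxylysine, fell from 544 to 43 reads (log2 -3.70), whereas its relative Colgalt1 had 3272 and 4516 (log2 0.40). The N-proteinases Adamts2 (279 and 109 reads, log2 -1.42) and Adamts3 (1017 and 387, log2 -1.46) were called lower and the scarce Adamts14 (25 and 64 reads) higher. P3h2, the gene once called Leprel1, had 1293 and 2714 reads and was just short of a 2-fold difference. The prolyl 3-hydroxylation partners Crtap and Ppib had values of 0.23 and 0.20.

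Hypoxia-responsive genes outside glycolysis were listed beside the enzymes, since P4ha1, P4ha2, Plod2, Lox and Loxl2 are known members of that response. Of 12 such genes, 8 were called higher and 0 lower, beside 8.16% and 6.55% of all genes tested, with a median of 1.36. The list was chosen with earlier results of these data known. Car9 had 96 reads in ctrl and 2034 in M2, Egln3 499 and 4115, and Vegfa 934 and 7510. The others called were Ndufa4l2 (5 and 1007 reads), Bnip3 (463 and 2279), Adm (218 and 739), Ndrg1 (2360 and 5038) and Egln1 (1229 and 2634). Of the 5 collagen enzymes named, 4 were called higher, and Lox was not. The oxygen level of the cultures is not recorded in the labels, and its part in the enzyme values was not tested.

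**Figure D3:**
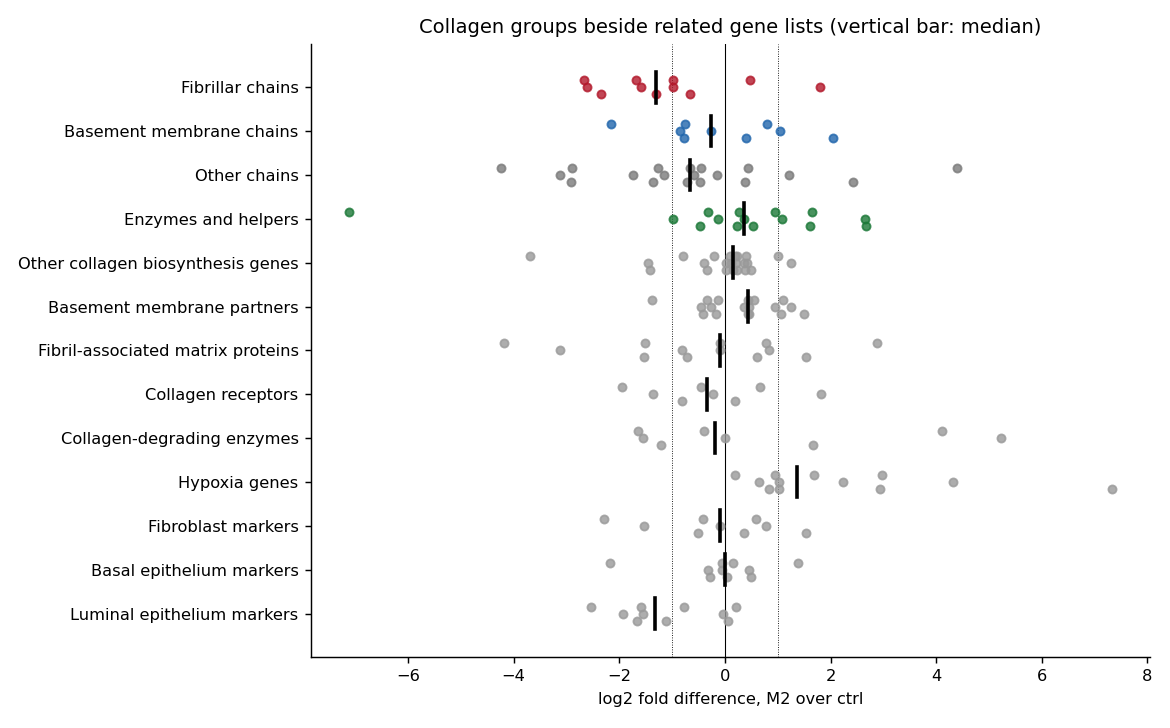
Log2 fold difference, M2 over ctrl, of the tested genes of each collagen group and of 9 related lists, 1 point per gene, with a vertical bar at the median and dotted lines at a 2-fold difference. Points of genes with 3 or fewer reads in a library (such as Mmp8) depend on the pseudocount. Fibrillar chains have a median of -1.31, enzymes and helpers 0.36 and hypoxia genes 1.36.

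How much the calls depend on unmeasured variation was examined with an assumed spread between cultures. The exactTest of edgeR, given a coefficient of 0.2 for that spread, left 7 members higher and 14 lower, beside 5.01% and 3.59% of all genes. The higher calls lost there were Col23a1, Col24a1, Col4a3 and P4ha3, and the lower ones Col28a1 and Col6a6. With 0.4, Col9a1 alone was higher and Col6a3, Col14a1 and Pcolce2 alone were lower among the members, where 0.910% and 0.676% of all genes were called. Which value applies cannot be known from 1 library per group.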

How the data were processed

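RNA of the 2 cultures was sequenced on an Illumina instrument. The authors deposited raw read counts per gene with the gene length, without normalization. The aligner, counting tool, annotation, read filters and use of strand are not given in the sources used here. The submitters' processing notes name GRCm38 and mm10. Of the 59 members, 57 have the same span as in GENCODE M21 and 2 overlap it. In 26 rows the gene name reads as a date.

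Groups were taken from the sample titles. Libraries were scaled with TMM in edgeR 4.0.16 under R 4.3.3 (factors 1.02 and 0.980, ctrl first). Fold differences are M2 over ctrl, in log2, of reads plus a pseudocount of 1. The exact binomial test (two-sided, scipy 1.17.1) was run on genes with at least 10 reads summed, with Benjamini-Hochberg adjustment and Clopper-Pearson 95% intervals. TPM were computed from counts and length without TMM, so their ratios differ slightly from the fold differences. Ratios of chains carry conditional odds ratio intervals. The functions were tested on simulated data. Alternatives were other scalings including DESeq2 1.42.0 size factors, filters, pseudocounts, a 4-fold limit and assumed variation. Named with values were called members, the 6 best covered of each group and called genes of the other lists (1 of which is not reported here), and further members to account for each. Members and lists were chosen with earlier results of these data known. The chain ratios were added after the values were seen. The totals of 26912610 and 29413844 reads set the precision, and 3 reads are 0.109 CPM in ctrl and 0.104 CPM in M2.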

Additional observations from a re-analysis of the deposited data

How the results depend on the processing

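DESeq2 size factors, upper quartile scaling, no filter on low counts and a pseudocount of 0.5 left the 11 higher and 16 lower calls as they were. With total reads alone, 10 were higher and 19 lower: Col4a3 was lost, and Col1a1, Col11a1 and Pcolce were gained. Scaling by total reads lowers the log2 difference of every gene by the same amount, and the share of all genes called there was not counted. That scaling gave medians of -0.32 (basement membrane) and 0.31 (enzymes) and summed levels of -1.30 (fibrillar), -0.085 (basement membrane), -0.67 (other chains) and 0.40 (enzymes). With at least 1 CPM in both libraries, the basement membrane and enzyme medians were -0.51 and 0.44, because Col4a3 and Pcolce2 leave those lists. Pcolce2 was below 1 CPM in M2 alone (72.1 CPM in ctrl and 0.486 in M2). Pcolce2, Col10a1, Col28a1, Col24a1 and Col4a3 were not tested there. With the most abundant member left out, sums were -1.45 (fibrillar), -0.16 (basement membrane), -0.98 (other) and 0.49 (enzymes), and without Col18a1 the basement membrane sum was -0.35. A 4-fold limit left 5 members higher and 9 lower, beside 3.20% and 2.57% of all genes, among them 3 fibrillar and 4 other chains lower and 2 enzymes higher. In the exactTest of edgeR, an assumed coefficient of variation of 0.2 left 7 higher. At 0.4, 1 was higher and 3 lower, with 0 fibrillar and 2 other chains lower and 0 enzymes higher. No tested member changed direction with the other scalings and pseudocounts. The filters, the 4-fold limit and the assumed variation leave the fold differences as they are, so they could not change a direction. Depth limits the 5 members under 10 reads, for which a difference was not detectable.

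No paired analysis was possible because there is only 1 library in either group.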

Other observations

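Receptors of collagen were also read. Of 10 receptor genes, 8 had enough reads. Itga2, the collagen-binding integrin chain of epithelium, rose from 521 to 1933 reads (log2 1.82), and its partner Itgb1 had 27481 and 45655 (log2 0.66, not called). The chain Itga11, typical of fibroblasts, fell from 191 to 77 reads (log2 -1.37), and the endocytic receptor Mrc2 from 247 to 66 (log2 -1.96). The discoidin receptors Ddr1 and Ddr2 had values of -0.45 and -0.22 and were not called.

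Enzymes that degrade collagen moved both ways, with 3 called higher and 2 lower of 8 tested. Mmp13, an interstitial collagenase, rose from 33 to 1335 reads (log2 5.23), and Mmp9, a gelatinase, from 330 to 1104 (log2 1.67). Mmp8 had 0 and 17 reads, so its log2 difference was 1.98 or more by the near end of the 95% interval. Mmp2 fell from 2623 to 935 reads (log2 -1.56) and Mmp15 from 5921 to 2664 (log2 -1.22), while the membrane collagenase Mmp14 had 5733 and 6033 and did not pass. Of the proteins that bind fibrils, the proteoglycans Bgn (29832 and 10906 reads, log2 -1.52) and Fmod (867 and 104, log2 -3.12) and the tenascin Tnxb (86 and 4 reads) were called lower, whereas Dcn (log2 1.53) and Fbln1 (62 and 485 reads, log2 2.88) were called higher. Postn, with 72824 and 71795 reads, differed by -0.09.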
